A study of Mus musculus with 194 samples.

Results

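The Sox2 domain is the stretch of mouse chromosome 3 that holds the gene Sox2 and its noncoding flanks. It was taken as 34.0 to 35.3 Mb of GRCm38, cut into windows of 50 kb, which gave 26 of 52623 windows over the autosomes and the X chromosome. Numbers run from window 1 at the upstream end to window 26. What was measured was transposon insertions by the calling card method, in which a transposase delivered by an adeno-associated virus places a marked transposon into the genome and the places where it lands are sequenced. Each deposited table lists the insertions of 1 animal, and rates are given as insertions per 1000000 insertions of the same table (IPM). The domain was chosen by its measured insertion rate, which had been seen to differ between groups, so rates and their ratios are given as a description, without tests.

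The animals were mice injected with virus at postnatal day 0 to 1. Cortex of 6 Syn1Cre, 6 Syn1Cre-negative (Syn1CreNeg), 6 GFAPCre and 6 GFAPCre-negative (GFAPCreNeg) animals was read from RNA with self-reporting transposons (SRT), as was cortex of 2 C57bl6J mice given Cre-independent viruses. Cortex of 3 animals was read from DNA with BrokenHeart transposons. SP1, a zinc finger factor that binds GC boxes, was named for 4 Syn1Cre animals at postnatal day 28 and 3 at postnatal day 10. The remaining groups were 4 Rbp4Cre animals, whose forebrain RNA came from ribosome affinity purification (TRAP), 3 Frontflip_GFAPCre and 3 Frontflip_GFAPCreNeg animals, and the neuroblastoma line N2a, pooled from 3 experiments. Syn1Cre is driven by a synapsin promoter active in neurons, GFAPCre by a promoter active in astrocytes and neural progenitors, and Rbp4Cre marks deep-layer projection neurons. The labels used here gave no age for the groups without SP1 and did not say what produces insertions in Cre-negative animals.

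Sox2 encodes an HMG box transcription factor that keeps neural stem and progenitor cells undifferentiated and that astrocytes continue to express. It is a single-exon gene inside an intron of the long noncoding RNA gene Sox2ot, and its transcription depends on enhancers spread far up- and downstream. The transposase usually used in this method, which the labels used here do not name, inserts at the tetranucleotide TTAA and, without a fused factor, favours active enhancers. Insertion density is neither expression nor a direct measure of binding by SOX2.

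Of the genes listed in the interval, Fxr1 (chr3:34020058-34069980), an RNA-binding protein gene, Dnajc19 (chr3:34057280-34081354), a mitochondrial co-chaperone gene, and Sox2 (chr3:34649995-34652461) were the protein-coding ones. Sox2ot covered chr3:34560381-34677993. The RefSeq promoter sequences of Sox2 and Fxr1 (GRCm38.p6, plus strand, the 250 bases before the annotated start) are given because insertions near both starts are compared below between SP1 and other animals. The start used for Fxr1 is the one of its RefSeq promoter entry. Capitals mark the GC box GGGCGG or its reverse complement CCGCCC, searched on both strands with overlaps counted.
Sox2 promoter, chr3:34649745-34649994: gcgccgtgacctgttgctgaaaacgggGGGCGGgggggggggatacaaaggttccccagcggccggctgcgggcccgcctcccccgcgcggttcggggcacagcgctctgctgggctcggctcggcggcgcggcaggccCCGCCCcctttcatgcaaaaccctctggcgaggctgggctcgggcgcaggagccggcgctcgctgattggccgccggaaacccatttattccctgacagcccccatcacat
Fxr1 promoter, chr3:34019829-34020078: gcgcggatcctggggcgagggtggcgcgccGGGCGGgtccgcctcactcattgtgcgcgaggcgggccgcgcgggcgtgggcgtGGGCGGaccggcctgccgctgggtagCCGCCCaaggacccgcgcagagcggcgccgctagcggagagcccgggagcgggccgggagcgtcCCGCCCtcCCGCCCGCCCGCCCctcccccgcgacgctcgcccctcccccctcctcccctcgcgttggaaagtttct
The Sox2 promoter held 1 match in each direction and no TTAA, and the Fxr1 promoter held 2 forward and 5 reverse matches and no TTAA. Of 32851 promoters of that length, 32.7% held a match. The TTAA nearest to the Sox2 start lay 13 bases downstream of it, and is shown in capitals within its target site at chr3:34649998-34650021.
Sox2 TTAA site: tggttgtctaTTAActtgttcaaa

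Tables held from 2341 insertions (Frontflip_GFAPCreNeg animal 2) to 2186743 (C57bl6J animal 2), so precision differed widely. The domain held 44260 insertions over the 46 animals. Each Rbp4Cre_TRAP animal had 10 to 27 insertions in it, each Frontflip_GFAPCreNeg animal 16 to 49, each BrokenHeart animal 48 to 108 and each other animal 221 to 3043. As a check of the groups, loci of cell type markers were compared between Syn1Cre and GFAPCre with edgeR's quasi-likelihood test. Of 10 neuron marker loci tested, 3 were higher in Syn1Cre, namely Gad1, Gad2 and Dlx1 of inhibitory neurons, against 1.13% of all 11643 loci tested. Of 9 astrocyte marker loci none passed either way, 0.979% of all loci being lower in Syn1Cre, and their median log2 fold change was -0.34 beside -0.01 for all loci. Among the other marker lists, microglial P2ry12 alone was called. Its log2 fold change was -0.79, and 2 of the 4 microglia loci, 5 of 6 oligodendrocyte loci and 2 of 3 endothelial loci were tested. Insertions at marker loci are not RNA levels, and their part in the domain's densities was not tested.

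The domain was dense in every cortical group and sparse in N2a. An even spread over all windows would give 494 IPM. In bulk tissue, fewer cells of a type and fewer insertions per cell cannot be told apart. Syn1Cre animals ranged from 1317 to 3267 with a median of 1599, and the mean was 1825 ± 730 (SD, n = 6). Syn1CreNeg animals ranged from 2856 to 3936 with a median of 3473, and the mean was 3445 ± 389 (SD, n = 6). Of the Syn1Cre animals, 5 lay below every Syn1CreNeg animal. Animal 5, at 3267, lay within the Syn1CreNeg range. In both groups animals 1 to 3 and animals 4 to 6 were labelled in different styles and shared no sequencing pool. Syn1Cre had 1400 ± 104 (SD, n = 3) in animals 1 to 3 and 2250 ± 883 (SD, n = 3) in animals 4 to 6, and Syn1CreNeg 3443 ± 546 (SD, n = 3) and 3446 ± 282 (SD, n = 3), so that the ratio of means was 0.406 in the first set and 0.653 in the second.
GFAPCre animals ranged from 1371 to 3168 with a median of 2067, and the mean was 2192 ± 636 (SD, n = 6). GFAPCreNeg animals ranged from 2324 to 4518 with a median of 2507, and the mean was 2852 ± 833 (SD, n = 6). The GFAPCre range overlapped those of both Syn1Cre and GFAPCreNeg. Among the 3 GFAPCre and 4 GFAPCreNeg animals that shared sequencing pools, the ratio of means was 0.697, beside 0.769 over all animals. No pool held animals of both Syn1Cre and its controls, or of both Syn1Cre and GFAPCre.

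The SP1 tables at postnatal day 28 had 3363, 3478, 3384 and 1695 IPM in the domain, and those at day 10 had 2764, 3152 and 2318. Except for animal 4 at day 28, the day 28 animals lay above all Syn1Cre animals. The ratio of means to Syn1Cre was 1.63 at day 28 and 1.5 at day 10, and both ranges overlapped that of Syn1Cre. No pool held both SP1 and Syn1Cre animals.
C57bl6J animals had 1424 and 1392, and BrokenHeart animals 1253, 1100 and 1129. These narrow ranges did not overlap, although each BrokenHeart value had a wide counting interval, for example 982 to 1575 (exact Poisson, 95%) for animal 1. Rbp4Cre_TRAP animals had 474, 258, 499 and 410, near the even spread and below all Syn1Cre animals.
Frontflip_GFAPCre animals had 3400, 3611 and 4430, above all GFAPCre animals. Frontflip_GFAPCreNeg animals had 5104, 6835 and 5825, the highest values of the series, and the one of 6835 rests on 16 insertions with an interval of 3907 to 11099. N2a had 99.2 IPM from 80 insertions, with an interval of 78.6 to 123, about 0.201 times the even spread. Intervals cover counting error only.
In order of their means the groups ran Frontflip_GFAPCreNeg, Frontflip_GFAPCre, Syn1CreNeg, SP1 at day 28, GFAPCreNeg, SP1 at day 10, GFAPCre, Syn1Cre, C57bl6J, BrokenHeart, Rbp4Cre_TRAP and N2a. Neighbours overlapped from Frontflip_GFAPCre down to C57bl6J. The Frontflip pair, C57bl6J and BrokenHeart, and the groups below did not.

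**Figure D1:**
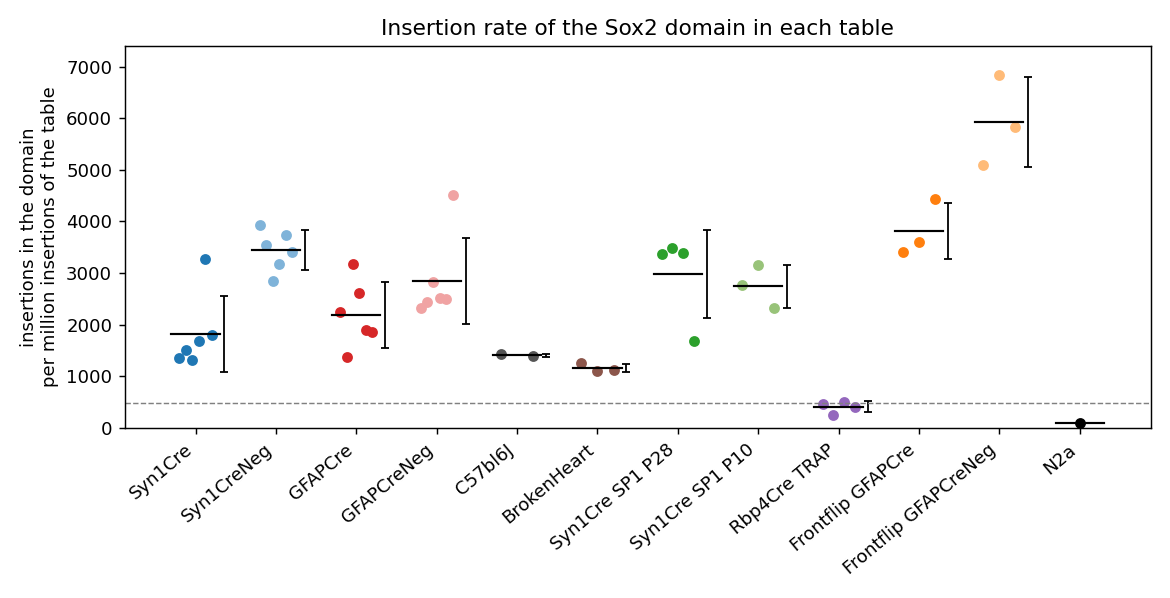
Insertion rate of the Sox2 domain in IPM (vertical axis, from 0) for each table (points) by group; horizontal bars are group means, error bars are 1 SD and the dashed line is the even spread of 494. Syn1Cre animals other than animal 5 lie below all Syn1CreNeg animals, and N2a lies at 99.2.

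In several groups the animal with the fewest or most insertions had the highest or lowest rate. Syn1Cre animal 5 had the fewest insertions of its group, 443158, and the highest rate. The other Syn1Cre animals ran the other way. Animals 4 and 6, the deepest with 1364948 and 1280871, had 1681 and 1800 IPM, above animals 1 to 3. In Syn1CreNeg animal 1, with 107483 insertions, had the highest rate, and animal 3, with 119059, the lowest. GFAPCre animal 3 had the fewest of its group, 600443, and the highest rate, and GFAPCre animal 2 the most, 1505413, and the lowest. GFAPCreNeg animal 6 had the fewest, 208057, and the highest rate, and SP1 day 28 animal 4 the most, 577609, and the lowest. The Cre-negative groups also held fewer insertions in total than their Cre counterparts. The part of depth in the differences was not tested.

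The insertions fell into a few dense clusters, with windows nearer the genome's level between them. In Syn1CreNeg 6 windows of the 26 ranked in the top 1% of the genome, and in GFAPCreNeg also 6. These were window 9 (chr3:34400001-34450000), centred 225 kb upstream of the Sox2 start, windows 12, 13 and 14, which run from 34550001 to 34700000 across Sox2ot and Sox2, and windows 22 and 23, centred 425 and 475 kb downstream (35050001 to 35150000), where no gene was listed. The 6 densest windows, picked within each group, held 88.0% of the domain's rate in Syn1CreNeg, 84.7% in GFAPCreNeg, 79.8% in GFAPCre and 73.6% in Syn1Cre. In Syn1Cre the 6 included windows 3 and 7 in place of windows 22 and 23, so its share is for a different set. In N2a no window reached even the top 10%, and 22 lay below the genome's median window.

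**Figure D2:**
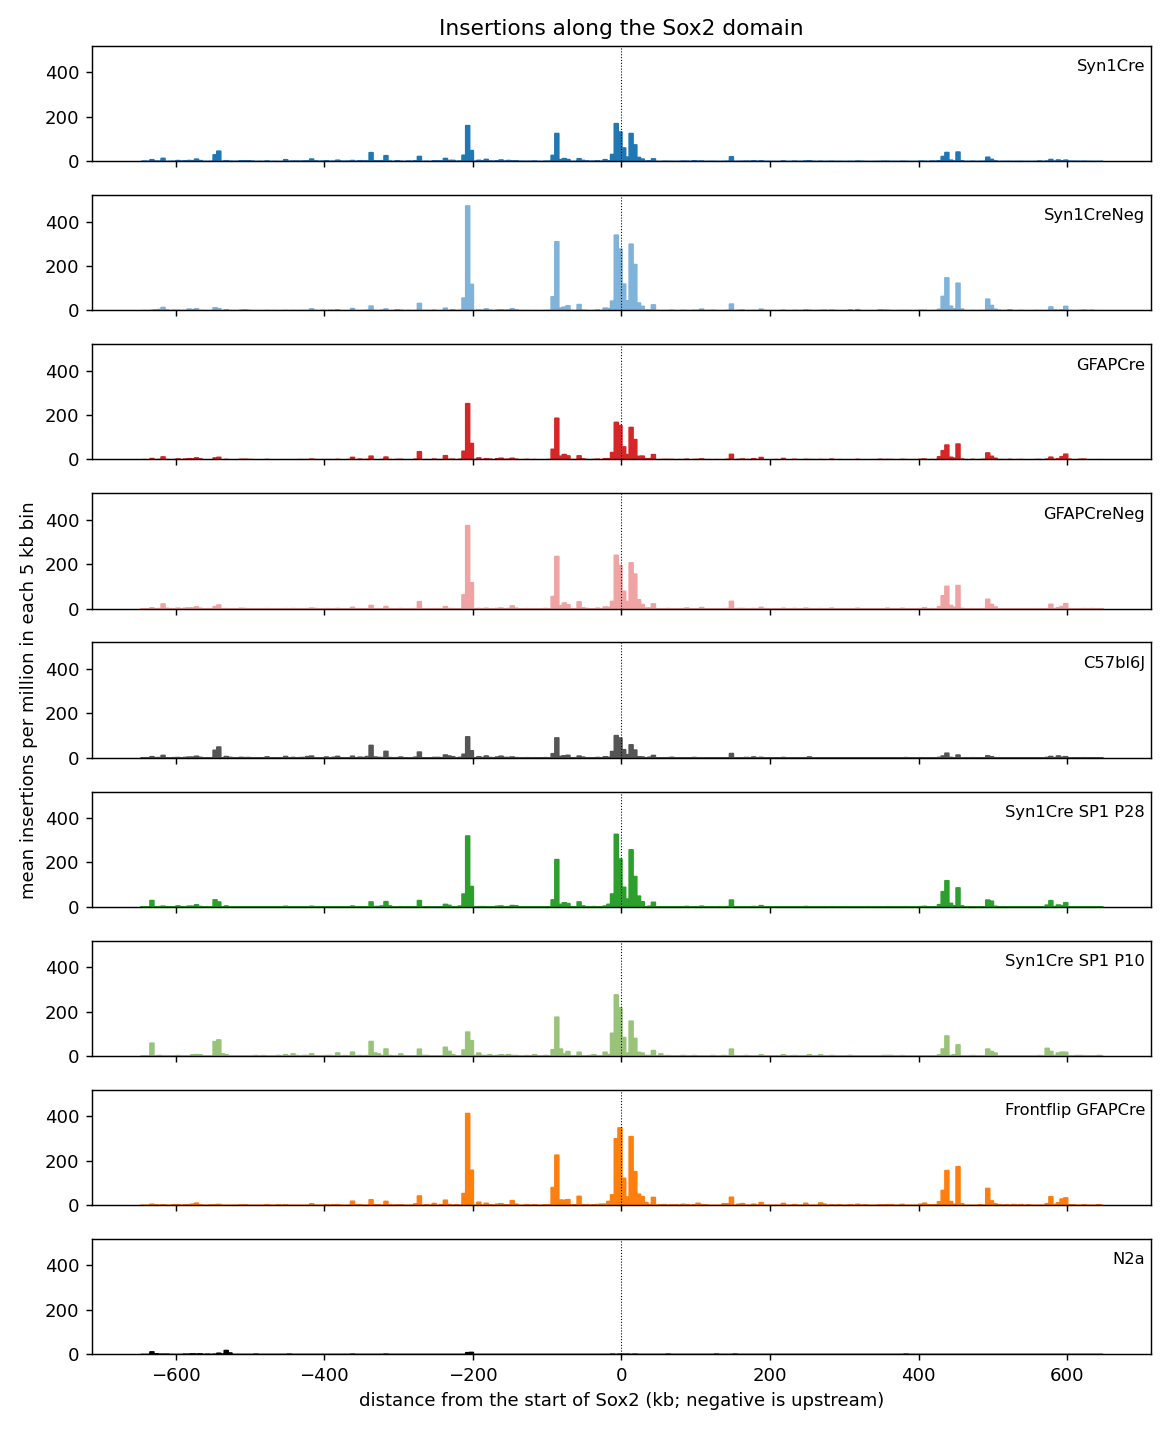
Mean IPM in each 5 kb bin (vertical axis, shared by all panels) against distance from the start of Sox2 in kb (dotted line) for 9 groups. The clusters in windows 9 and 12 to 14 recur in the cortical groups shown at different heights, and N2a is nearly flat. Windows 22 and 23 form a cluster in most of them. In C57bl6J they had only 40.8 and 46.6 IPM (window 22) and 27.8 and 42.5 (window 23). Lower peaks than those of windows 9 and 12 to 14 can be seen in windows 3 and 7 in Syn1Cre, C57bl6J and SP1 at day 10.

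Windows 13 and 14 hold Sox2, the first only the first bases of the gene. In window 14 (chr3:34650001-34700000) the Syn1Cre animals had 244, 277, 221, 289, 648 and 306 IPM. The Syn1CreNeg animals had 893, 861, 605, 730, 744 and 729. The GFAPCre animals had 402, 214, 590, 465, 335 and 314. Only Syn1Cre animal 5 entered the Syn1CreNeg range, and the Syn1Cre and GFAPCre ranges overlapped.
Window 13 (chr3:34600001-34650000) had the highest mean over Syn1Cre and GFAPCre animals, 365, followed by window 14 at 359 and window 9 at 333. In window 13 the Syn1Cre mean was 357 and the GFAPCre mean 373, and SP1 at day 10 reached 668, 780 and 462. In window 9 the Syn1Cre animals had 143, 199, 160, 257, 621 and 251, against 415, 217, 560, 509, 343 and 315 in GFAPCre. Here the day 10 SP1 animals, with 276, 290 and 273, lay within the Syn1Cre range, and N2a kept 18.6.
Within the gene itself, IPM per kb were 6.1 for Sox2 and 7.1 for Sox2ot in Syn1Cre, and 11.7 and 15.2 in Syn1CreNeg. Over the whole of Sox2ot, which contains Sox2, the Syn1Cre mean was 838 ± 366 (SD, n = 6) IPM and the Syn1CreNeg mean was 1790 ± 221 (SD, n = 6). The miRNA genes Mir1897 and Mir6378 held no insertion in any group.

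Windows 3 and 7, farther upstream, ran the other way. In window 3 (chr3:34100001-34150000), centred 525 kb upstream and without a listed gene, the Syn1Cre animals had 117, 91.8, 84.0, 79.1, 76.7 and 109 IPM. The GFAPCre animals had 26.9, 26.6, 20.0, 28.8, 27.6 and 36.7, and the Syn1CreNeg animals 65.1, 30.8, 25.2, 21.6, 35.9 and 29.7. Every Syn1Cre animal, animal 5 included, lay above every GFAPCre and Syn1CreNeg animal. C57bl6J animals had 111 and 104, SP1 day 10 animals 150, 212 and 115, and SP1 day 28 animals 73.3, 73.4, 60.7 and 51.9.
Window 7 (chr3:34300001-34350000), centred 325 kb upstream over the gene model Gm38505, behaved alike. The Syn1Cre animals had 70.4, 97.8, 88.5, 79.1, 83.5 and 94.5, and the GFAPCre animals 36.2, 27.9, 46.6, 50.4, 34.1 and 23.5. The ranges did not overlap, and the ratio of means was 2.35, beside 3.34 in window 3. In BrokenHeart both windows lay below C57bl6J, at 0.243 and 0.274 times its mean. The Rbp4Cre_TRAP mean was 15.6 in window 3, and its tables listed no insertion in window 7. Window 5 (chr3:34200001-34250000), between these, had 17.6 to 30.2 IPM in Syn1Cre and 8.13 to 10.3 in GFAPCre. There the Syn1CreNeg animals, at 0 to 28.7, overlapped the Syn1Cre range.

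To compare windows across the genome, insertion counts were fitted with edgeR's quasi-likelihood test, and a window was called at an adjusted p under 0.05. The domain was chosen for these differences, so nothing is read from the counts. In Syn1Cre against GFAPCre, 18 of the 26 windows passed the count filter, 3 were called higher (1.52% of all windows tested) and 2 lower (1.31%). Without Syn1Cre animal 5, 10 were called, and with animals 1 to 3 of each group, 9. The highest log2 fold change was 1.74 ± 0.15 (SE) in window 3 and the lowest -1.09 ± 0.22 in window 25 (chr3:35200001-35250000).
In Syn1Cre against Syn1CreNeg 16 windows were tested, 2 were called higher (13.5% of all windows) and 8 lower (17.4%). The highest log2 fold change was again in window 3, 1.52 ± 0.21 (SE), and the lowest, -1.77 ± 0.27, in window 22 (chr3:35050001-35100000), where Syn1Cre animals had 41.2 to 190 IPM and Syn1CreNeg animals 193 to 318.
In GFAPCre against GFAPCreNeg 16 windows were tested, 1 was called higher (0.921%) and 1 lower (5.76%). The extremes were window 10 (chr3:34450001-34500000) at 1.00 ± 0.25 (SE) and window 11 (chr3:34500001-34550000) at -0.71 ± 0.25. Without GFAPCre animal 3 the count was 7, and without any other single animal it was 1. Among all windows called here 13.8% were higher, 24.4% when libraries were scaled by their totals and 4.84% with DESeq2.

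**Figure D3:**
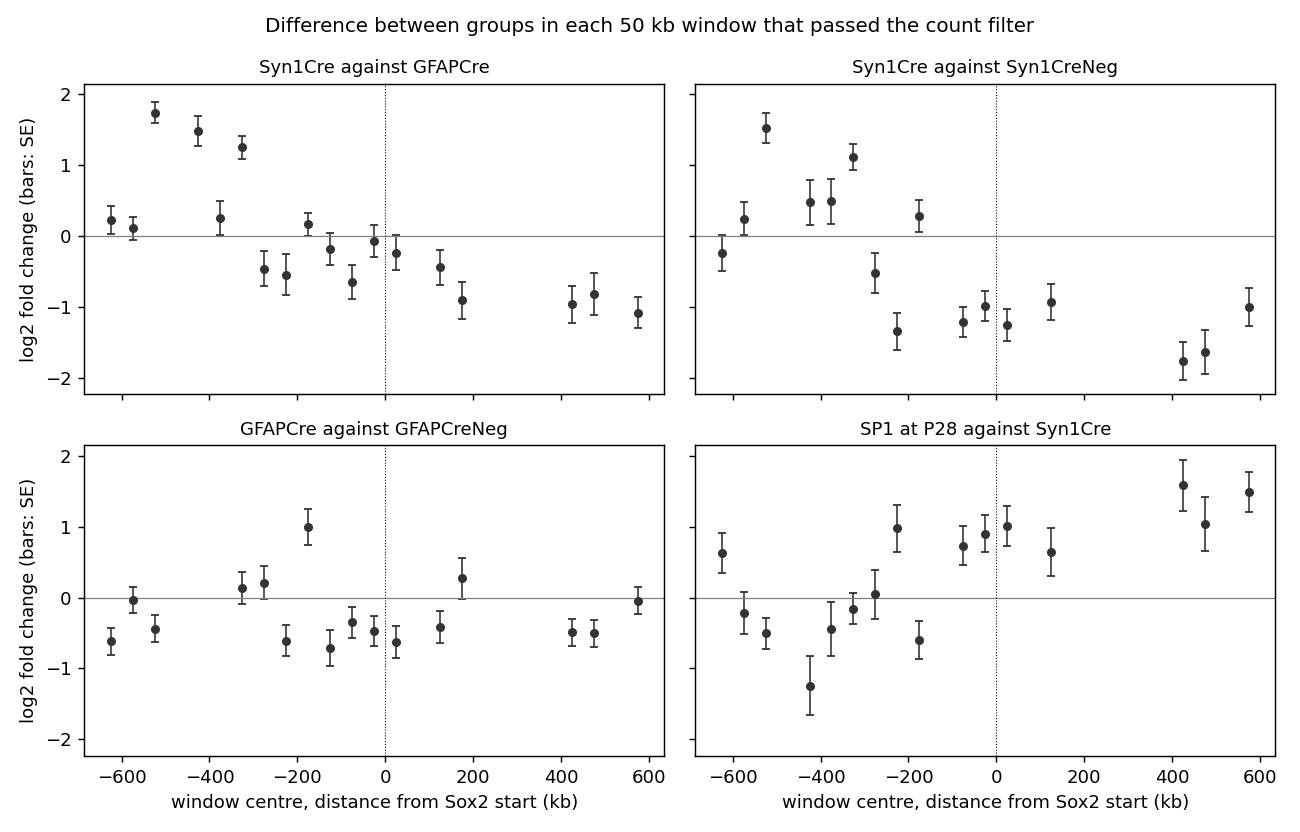
Log2 fold change (vertical axis; bars are SE) of each 50 kb window that passed the count filter, against the distance of its centre from the Sox2 start in kb, in 4 comparisons. In Syn1Cre against GFAPCre the value falls from 1.74 in window 3 to -1.09 in window 25.

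For SP1 at day 28 against Syn1Cre, 7 windows of the 16 tested were called higher (20.7% of all windows) and 1 lower (18.5%). Window 22 had the highest log2 fold change, 1.58 ± 0.36 (SE), with 233, 358 and 255 IPM in SP1 animals 1 to 3 and a value inside the Syn1Cre range of 41.2 to 190 in animal 4, and window 5 (chr3:34200001-34250000) the lowest, -1.24 ± 0.41. The count of 8 fell to 5 without Syn1Cre animal 1, 2 or 6 or SP1 animal 1, to 4 without SP1 animal 2 and to 2 without SP1 animal 3, and DESeq2 called 5.
For SP1 at day 10 against Syn1Cre, 1 window of 20 was called higher (10.4%) and 0 lower (14.3%). This was window 25, at a log2 fold change of 1.88 ± 0.39 (SE), with 92.1 to 156 IPM against 18.6 to 54.2. The lowest was window 2 (chr3:34050001-34100000) at -0.47 ± 0.57. The domain's windows had a median log2 fold change of 0.53, beside -0.50 over all windows. Of all windows called 42.1% were higher, and 53.6% with DESeq2. Without Syn1Cre animal 5, 7 were called, and without Syn1Cre animal 1 or 6, 2. Both SP1 comparisons used the same Syn1Cre animals.
For BrokenHeart against C57bl6J only 6 windows were tested, 0 were called higher (26.7%) and 2 lower (24.8%), namely windows 3 and 7. Window 14 had the highest log2 fold change, 0.57 ± 0.27 (SE), and window 3 the lowest, -1.83 ± 0.56. Without either C57bl6J animal 0 were called, and without BrokenHeart animal 1, 4. Among all windows called 51.9% were higher, and 38.2% with library totals, where the median over all windows tested stood at -0.38 in place of -0.12.

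The starts of the 3 protein-coding genes of the domain were read separately, and Fxr1 was singled out after its values were seen. Within 1 kb of the start of Fxr1, whose promoter with 7 GC box matches is printed above, Syn1Cre animals had 4.5 to 9.0 IPM, with a mean of 7.1 ± 1.7 (SD, n = 6). SP1 animals had 17.2 to 55.1 at day 28 and 42.0 to 92.1 at day 10, with means of 28.7 ± 17.8 (SD, n = 4) and 59.5 ± 28.2 (SD, n = 3). Neither SP1 range overlapped that of Syn1Cre. These means rest on 39, 27 and 16 insertions, and those of SP1 are small counts. N2a had 9.9 IPM there, from 8 insertions. The share of starts over the genome without overlap was not counted. Of 50 kb windows over the genome, a different measure, 20.7% of those tested were called higher in SP1 at day 28 and 10.4% at day 10. By that measure window 1, which holds this start, was not called at either age. Over the whole of Fxr1 the means were lower in SP1, at 22.8 ± 5.7 (SD, n = 4) IPM at day 28 and 7.3 ± 6.4 (SD, n = 3) at day 10. Syn1Cre had 32.8 ± 9.7 (SD, n = 6). The part of the GC boxes in the values at these starts was not tested. At the start of Dnajc19, whose promoter also held 1 match in each direction, the means were 4.3 ± 2.3 (SD, n = 6) in Syn1Cre, 2.4 ± 3.0 (SD, n = 4) at day 28 and 7.3 ± 6.4 (SD, n = 3) at day 10, from 26, 3 and 2 insertions, and the ranges overlapped. Within 1 kb of the start of Sox2 there was 1 insertion in all Syn1Cre animals together, 0 in SP1 at day 28 and 5 in SP1 at day 10. BrokenHeart and Frontflip_GFAPCre, neither labelled with SP1, held 5 and 6 there. Their means were 19.3 and 11.5 IPM, beside 18.1 in SP1 at day 10. Within 10 kb the Sox2 values were 386 ± 151 (SD, n = 6) in Syn1Cre, 673 ± 189 (SD, n = 4) at day 28 and 595 ± 154 (SD, n = 3) at day 10. The dense cluster around Sox2 therefore lay outside the kilobase next to its start. Insertions fall on TTAA. Positions 13, 96 and 162 bases downstream of the Sox2 start were hit, and how many other TTAA sites lie in that stretch was not read.

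**Figure D4:**
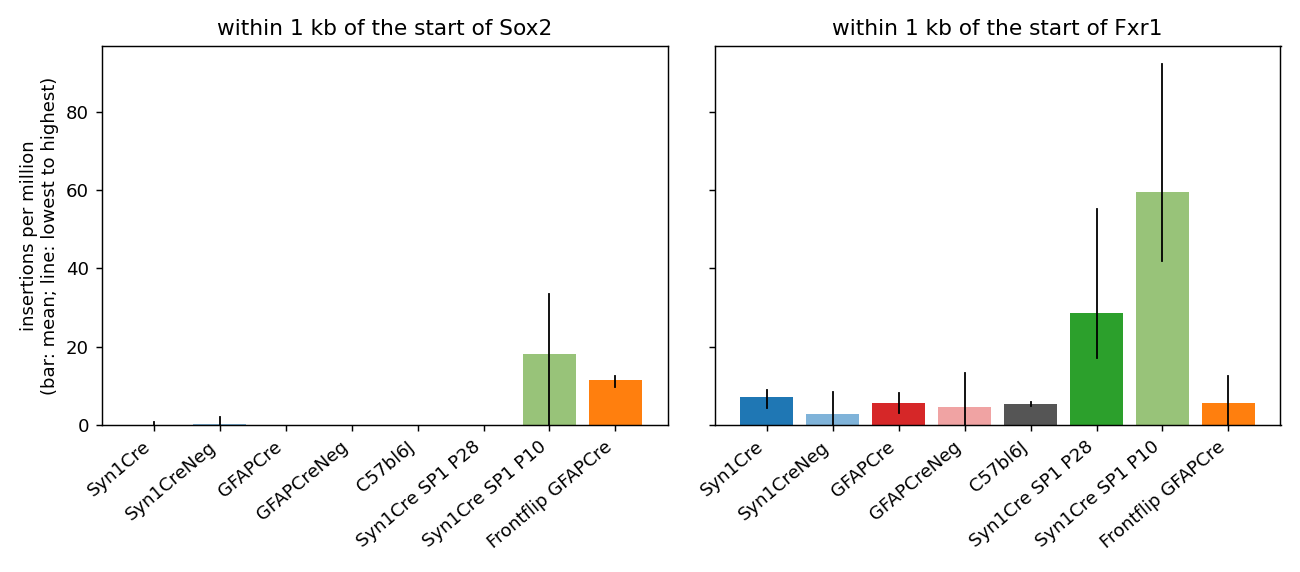
Mean IPM (bars from 0; lines run from the lowest to the highest animal) within 1 kb of the starts of Sox2 and Fxr1 in 8 groups. At Fxr1 the SP1 groups stand at 28.7 and 59.5 beside 7.1 in Syn1Cre, and at Sox2 most groups are at or near 0. BrokenHeart, with a mean of 19.3 at Sox2, is not among the groups shown.

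Insertions recurred at the same bases in different animals. The 46 animals hit 3235 positions in the domain, 1240 of them in 1 animal and 298 in 20 or more. Positions hit in 20 or more animals were 9.21% of the domain's positions and 1.74% of the genome's, and they held 68.9% of the domain's insertions. Since a dense region is hit again more often, this follows the density used to choose the domain and is given without a test. Windows 14 and 13 held 72 and 66 such positions, window 9 held 45 and window 12 held 39.
The most widely hit position was chr3:34445364, 205 kb upstream of Sox2 in window 9 and outside listed genes. It had 430 insertions in 42 animals, 203 of them on the plus strand. Position chr3:34641989, 8.01 kb upstream of Sox2 within Sox2ot, had 294 insertions in 41 animals, and only 33 were on the plus strand. Position chr3:34643014, 6.98 kb upstream, had 202 in 41 animals, with 43 on the plus strand.
Downstream, chr3:35088208, 438 kb from Sox2, had 315 insertions in 40 animals, of which 18, or 5.71%, were on the plus strand. In Syn1Cre it had 50 insertions and 0 on the plus strand, and in GFAPCre 59 and 3. Its neighbour chr3:35102954, 453 kb downstream, had 304 in 39 animals and 55.6% on the plus strand. Strong strand imbalance was thus a property of single positions. Of the 298 recurrent positions 65 had under 20% of their insertions on the plus strand and 30 had over 80%, while their median was 49.0%. Each of these 5 positions was hit in all animals of Syn1Cre, Syn1CreNeg, GFAPCre and GFAPCreNeg, and N2a listed only the first of them, with 3 insertions.

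Strand was not used to choose the domain and was tested across animals. The domain's share is, however, weighted by where its insertions fall, and strong imbalance sat at single positions. It is therefore not independent of the densities used for the choice. The part of density in the differences below was not tested. Outside the domain the plus-strand share lay between 49.8% and 50.3% in every table other than 2 of Frontflip_GFAPCreNeg, the shallowest group, whose lowest value was 48.1%. Inside it was 46.9% ± 0.62 (SD, n = 6) in Syn1Cre, 48.8% ± 1.42 (SD, n = 6) in GFAPCre, 44.9% ± 2.39 (SD, n = 6) in Syn1CreNeg and 47.6% ± 1.11 (SD, n = 6) in GFAPCreNeg. In SP1 it was 41.9% ± 2.71 (SD, n = 4) at day 28 and 42.5% ± 1.54 (SD, n = 3) at day 10, and every SP1 animal lay below every Syn1Cre animal.
By a two-sided exact permutation test, adjusted over 5 comparisons, the share was lower in SP1 than in Syn1Cre at day 28 by 4.92 points (difference -4.92, p = 0.0048, adjusted p = 0.024) and at day 10 (difference -4.32 points, p = 0.012, adjusted p = 0.029), each p being the smallest these group sizes allow. No sequencing pool held both SP1 and Syn1Cre animals, so SP1 and pool cannot be told apart here. Tables held 108965 to 577609 insertions in SP1 at day 28, 86842 to 95331 at day 10 and 443158 to 1364948 in Syn1Cre. The part of depth in these differences was not tested. The share was also lower in Syn1Cre than in GFAPCre (difference -1.93 points, exact permutation p = 0.017, adjusted p = 0.029). Leaving out Syn1Cre animal 2, 5 or 6 ended that call, at differences of -1.81, -1.85 and -1.79, and leaving out any SP1 day 10 animal left a difference of -4.96 to -3.46 with 2 animals, too few for any p to pass the adjustment. With each position and strand counted once per table none of the 3 passed (differences -3.36, -4.23 and -1.21 in the order given), although the day 10 animals, at most 45.1%, still lay below all Syn1Cre animals, at least 46.1%. Syn1Cre exceeded Syn1CreNeg by 1.93 points (exact permutation p = 0.11, adjusted p = 0.13) and GFAPCre exceeded GFAPCreNeg by 1.21 points (exact permutation p = 0.13, adjusted p = 0.13), neither past the threshold. Syn1CreNeg animals 1 to 3 had 42.9% ± 1.02 (SD, n = 3) and animals 4 to 6 had 47.0% ± 0.82 (SD, n = 3). Syn1Cre therefore differed from it by 4.13 points among animals 1 to 3 and by -0.28 points among animals 4 to 6, so the difference did not hold within both sets. Without Syn1CreNeg animal 5 the first of these passed, at 2.52 points, and without GFAPCre animal 5 the second, at 1.67.

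**Figure D5:**
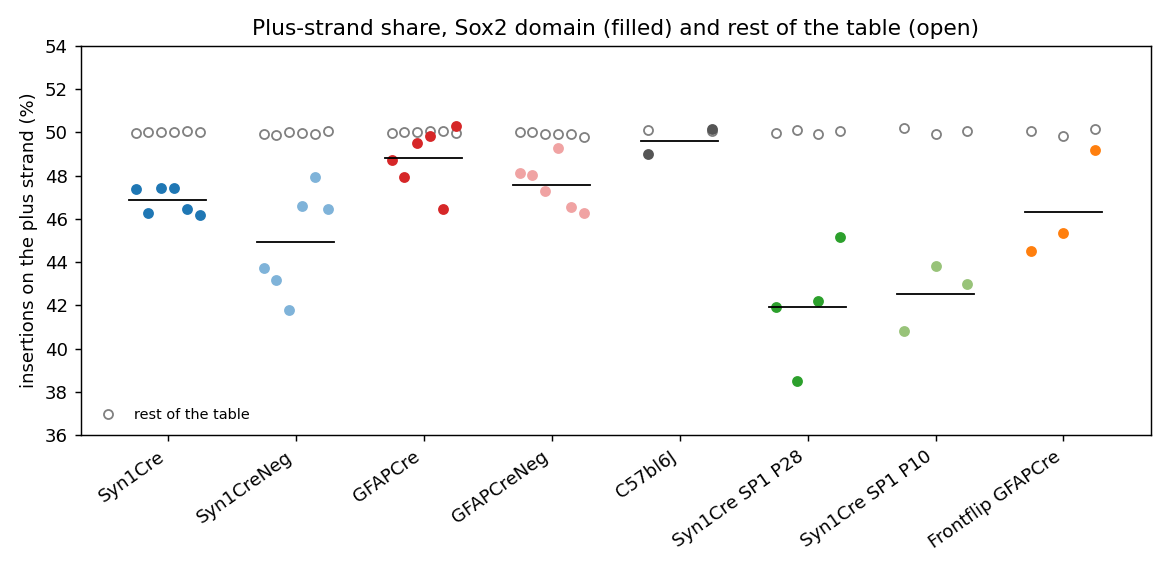
Share of insertions on the plus strand in percent (vertical axis, shown from 36 to 54) inside the Sox2 domain (filled points, bar at the mean) and in the rest of the same table (open points), 1 point per animal. The rest of the table lies between 49.8 and 50.2 in all 8 groups, and the SP1 animals have domain shares between 38.5 and 45.1.

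Reads per insertion, the other measure not used in the choice, were compared between the domain and the rest of each table as a difference of mean log2 reads. Syn1Cre animals had differences of 0.14, 0.19, 0.18, 0.34, 0.50 and 0.26, and GFAPCre animals 0.70, 0.17, 0.26, 0.27, 0.27 and 0.18, so that insertions of the domain had more reads in all 12. The means were 0.27 ± 0.14 (SD, n = 6), or 1.21-fold, and 0.31 ± 0.20 (SD, n = 6), or 1.24-fold. A two-sided exact sign-flip permutation test gave p = 0.031 in each, the smallest it can give, and an adjusted p of 0.062 over 4 groups, so neither passed. In Syn1CreNeg the mean was 0.10 ± 0.19 (SD, n = 6), above 0 in 3 animals (exact sign-flip permutation p = 0.28, adjusted p = 0.28). These were animals 4 to 6, with a mean of 0.27 ± 0.070 (SD, n = 3), and animals 1 to 3 had -0.067 ± 0.046 (SD, n = 3). In GFAPCreNeg it was 0.11 ± 0.13 (SD, n = 6), above 0 in 4 animals (exact sign-flip permutation p = 0.12, adjusted p = 0.17).

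Other genes of the Sox family and genes known as SOX2 partners or progenitor regulators were read at their own loci, each protein-coding gene with 10 kb on both sides, by edgeR's quasi-likelihood test over all loci. A flank can include a neighbouring gene. Sox2's own locus had 487 ± 200 (SD, n = 6) IPM in Syn1Cre and 519 ± 163 (SD, n = 6) in GFAPCre, a log2 fold change of -0.16 ± 0.21 (SE) that is given without a test. In Syn1Cre against GFAPCre 12 of 18 Sox loci were tested, and 1 was lower (0.979% of all 11643 loci) and none higher (1.13%), with a median log2 fold change of -0.09 beside -0.01 over all loci. The lower one was Sox21, a SOXB2 factor that counteracts SOX2 targets, at -1.25 ± 0.31 (SE, edgeR adjusted p = 0.032). Sox9, an astrocyte factor, stood at -0.60 ± 0.29 without passing.
Of 22 partner and progenitor loci 18 were tested in that comparison, 2 were lower and none higher, beside the same 0.979% and 1.13% over all loci, and the median was -0.18. They were Pax6, a progenitor regulator that binds DNA together with SOX2, at -0.96 ± 0.22 (SE, edgeR adjusted p = 0.019), and Nr2e1, the Tlx receptor of neural stem cells, at -0.83 ± 0.19 (SE, edgeR adjusted p = 0.020). The POU partners Pou3f2, Pou3f3 and Pou3f4 had log2 fold changes of -0.42, -0.08 and -0.78, and none passed. With gene bodies alone no locus of either list was called. Among all loci called 132 were higher and 114 lower, and 181 and 100 with library totals.

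In SP1 at day 28 against Syn1Cre, loci called across the genome were 25.8% higher and 24.9% lower of 12304 tested. Of 13 Sox loci tested 3 were higher and 3 lower, with a median log2 fold change of 0.29 beside -0.06 over all loci. The higher ones were Sox15 at 2.11 ± 0.27, Sox12 at 2.02 ± 0.17 and Sox21 at 1.06 ± 0.38 (SE, edgeR adjusted p = 5.9e-07, 6.2e-10 and 0.022). The lower ones were Sox5 at -1.46 ± 0.15, Sox30 at -1.10 ± 0.44 and Sox4 at -0.92 ± 0.17 (SE, edgeR adjusted p = 9.0e-09, 0.039 and 6.7e-05). Sox5 and Sox4 act in neuronal differentiation. Sox2 itself had 847 ± 237 (SD, n = 4) IPM with its 10 kb flanks, beside 487 ± 200 (SD, n = 6) in Syn1Cre, and its log2 fold change depended on the scaling, at 0.29 ± 0.23 (SE) in the fit and 0.50 with library totals.
Of 19 partner and progenitor loci tested 6 were higher and 3 lower, with a median of 0.19. Among the higher were the Notch receptor gene Notch1 at 1.16, the Notch target Hes5 at 1.02, Id4 at 0.82 and Pax6 at 0.80. The lower ones were the Notch target Hes1 at -0.88, Rfx4 at -0.73 and the cortical selector Lhx2 at -0.70. Calls in either direction, 6 of 13 and 9 of 19, were close to the share called among all loci. Library totals moved the median of all loci from -0.06 to 0.14 and gave 6 higher and 2 lower Sox loci and 6 higher and 3 lower partner loci, and the genes named kept their direction. Over all loci the calls were then 3920 higher and 2103 lower, beside 3178 and 3068. Cell type marker loci are given beside the 25.8% higher and 24.9% lower over all loci, and nothing is read from their counts. Of 10 neuron marker loci 2 were higher and 4 lower, and of 10 astrocyte loci 2 were higher and none lower. Of 5 oligodendrocyte loci none were higher and 2 lower. Of 2 microglia loci 1 was higher, and of 2 endothelial loci 1 was lower. The part of these cell types in the Sox and partner loci was not tested.

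Across the 11 groups other than Frontflip_GFAPCreNeg, the loci whose log2 group means most resembled those of the Sox2 locus, by Pearson's r and outside the domain, were Ptprz1 on chromosome 6 (r = 0.989), Hey1 on chromosome 3 (r = 0.988) with the gene model LOC115489673 that overlaps it (r = 0.989), Slc1a3 on chromosome 15 (r = 0.988) and Sncaip (r = 0.987). Slc1a3 encodes the astrocytic glutamate transporter GLAST, Ptprz1 a receptor phosphatase of glia and progenitors, and Hey1 a Notch target. The median r of the 10813 loci compared was 0.081, 185 loci exceeded 0.9, and groups differing in depth and library type share those features at every locus, so these values carry no p. Slc1a3 had 314 IPM in Syn1Cre, 489 in GFAPCre, 946 in Syn1CreNeg and 4.96 in N2a, and the Sox2 locus 487, 519, 1018 and 3.72. The Sox2 locus had 75.1 in Rbp4Cre_TRAP and 233 to 1044 in the groups other than that one and N2a. These 2 low groups therefore weigh heavily in r.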

How the data were processed

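Each deposited table gives 1 line per insertion with its position, strand, barcode and a count of reads, made by the authors from sequencing reads. The submitters' processing notes name mm10, Novoalign and Bowtie2, without roles or versions. Those tables are the units here: 1 per animal, with N2a pooled. Positions are 1-based, the first base of TTAA. In promoter windows 100% of SRT and 97.6% of BrokenHeart insertions fell on TTAA at the offset chosen for each.

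Insertions were counted per 50 kb window and per protein-coding locus (21631 loci with 10 kb flanks) and divided by the table's total. Counts were fitted with edgeR 4.0.16 in R 4.3.3 (filterByExpr, TMM, Benjamini-Hochberg over all windows or loci), with DESeq2 1.42.0 as an alternative. Small-sample tests were exact permutations over animals. P-values set a difference against the spread between animals of a group. Alternatives changed scaling, filter, counting of repeated positions, reads and animals left out. GEO pools can mix animals, so groups follow the tables.

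Windows named are those holding Sox2, the 3 of highest mean and the extremes of each comparison. Sites named are the 5 hit in most animals, and loci those past the threshold, at most 5 per direction, or the 5 most like Sox2. Sox9, Pou3f2, Pou3f3, Pou3f4, windows 7 and 12 and the Fxr1 start were named after their values were seen. The members and lists were chosen with earlier results of these data known. The same replicate number names different animals in different groups and pairs none of them.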

Additional observations from a re-analysis of the deposited data

Results flagged for a closer look

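In groups of 4 to 10 animals, the highest or lowest value stood far from the rest of its group (Dixon's test, 95%) in 6 of 24 checks, and chance alone flags about 1 in 20. For the rate of the domain these were Syn1Cre animal 5 at 3267 IPM, GFAPCreNeg animal 6 at 4518 and animal 4 of SP1 at day 28 at 1695. The first 2 had the fewest insertions of their groups and the last the most. For window 13, which holds the start of Sox2, Syn1Cre animal 5 at 639 and GFAPCreNeg animal 6 at 827 stood apart as well. For reads per insertion, GFAPCre animal 1 stood apart with a difference of 0.70 in mean log2 reads between the domain and the rest of its table.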

How the results depend on the processing

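Of 313 recomputed values, 253 were kept. Rate ratios were kept if they held their direction and moved by less than the spread between animals. Test results were kept if they held their direction and their side of the threshold. Counts of windows or loci called were kept if they stayed within a fixed fold of the main count, whatever their direction. Among the 253 were all 102 rate ratios with 1 animal left out, a mild change to a mean. With other settings 17 rate ratios were kept, 3 moved and 2 reversed. Of the counts of domain windows called, 18 were then kept and 11 moved. Counting each position and strand once per table reversed the ratio of BrokenHeart to C57bl6J (1.05) and of SP1 at day 28 to day 10 (0.914), raised that of SP1 at day 10 to Syn1Cre to 2.21, and left the strand differences at -1.21 (Syn1Cre against GFAPCre), -3.36 (SP1 at day 28) and -4.23 points (SP1 at day 10) without passing the adjusted threshold. Keeping insertions with 2 or more reads put the BrokenHeart ratio at 0.770. The share of insertions with 2 or more reads differed between domain and rest by -0.31 points in Syn1CreNeg and -0.0031 in GFAPCreNeg, against the sign of their mean log2 reads.
Domain windows called changed as follows. Syn1Cre against GFAPCre gave 9 without the low-count filter and 9 with animals 1 to 3. GFAPCre against GFAPCreNeg gave 1 with library totals, 1 with DESeq2 and 4 with distinct positions. SP1 at day 28 gave 5 with DESeq2, and SP1 at day 10 gave 3 with library totals and 8 with distinct positions. BrokenHeart against C57bl6J gave 5 without the filter and 0 with distinct positions, where edgeR tested only 3 windows of the domain. With a replicate block, whose numbers name unrelated animals, the first comparison kept a count of 5, Syn1Cre against its negative controls 10, and GFAPCre against its own 1. Leaving out 1 animal gave 4 to 10 windows for Syn1Cre against GFAPCre, 1 to 7 for GFAPCre against GFAPCreNeg, 2 to 10 for SP1 at day 28, 1 to 7 for SP1 at day 10 and 0 to 4 for BrokenHeart. The strand difference then ranged from -2.40 to -1.63 points (Syn1Cre against GFAPCre), 1.29 to 2.52 (against Syn1CreNeg), 0.903 to 1.67 (GFAPCre against GFAPCreNeg) and -4.96 to -3.46 (SP1 at day 10).
With gene bodies alone the Sox and the partner loci called were 0 and 0 in Syn1Cre against GFAPCre and 3 and 3 in SP1 at day 28, and distinct positions gave 1 and 5 partner loci. The cause of these changes was not tested. Over all windows, 637 were called in Syn1Cre against GFAPCre, 402 with DESeq2, 423 with distinct positions, 1007 without the filter, 1559 with animals 1 to 3 and 303 to 1935 with 1 animal left out. GFAPCre against GFAPCreNeg gave 1131, and 558 to 1755 with 1 left out, SP1 at day 10 gave 5854 and 3514 to 6637, and BrokenHeart gave 674 and 177 to 1451, with 1329 by DESeq2, 2822 without the filter and 404 with distinct positions. Loci called for SP1 at day 28 numbered 6246, and 2893 with gene bodies. Depth limits Rbp4Cre_TRAP and Frontflip_GFAPCreNeg most, with 10 to 49 insertions in the domain. The values within animals 1 to 3 and 4 to 6 of Syn1Cre and Syn1CreNeg were chosen after seeing the data.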

Other observations

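Insertions within 1 kb of the start of Sox2 were almost confined to 3 of the shallower groups, a contrast noticed in the data and not tested. BrokenHeart, SP1 at day 10 and Frontflip_GFAPCre held 16 such insertions among 1000557 insertions, and all other groups, N2a included, held 2 among 20931176, or 0.0956 IPM. They lay at 3 positions, all downstream of the start. Position chr3:34650008, the TTAA site printed in the report, had 7 insertions in 5 tables, and chr3:34650091 had 10 in 6 tables, 3 of them in BrokenHeart, 2 in SP1 at day 10 and 5 in Frontflip_GFAPCre. GFAPCre, with 5201701 insertions, listed none within 1 kb, which allows up to 0.577 IPM (3 counts of the total), and C57bl6J none among 3732694, which allows up to 0.804. Rbp4Cre_TRAP, with 171833, also listed none, which allows up to 17.5. The groups differ in library type, depth and virus, and their part in the contrast was not tested.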
